A study of Mus musculus with 12 samples.

Results

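The genes described here are 10 AP-1 and immediate early genes, matched by symbol in the deposited tables: *Fos*, *Fosb*, *Fosl1* and *Fosl2* of the FOS family, *Jun*, *Junb* and *Jund* of the JUN family, and *Egr1*, *Atf3* and *Ier2*. All 10 were found in each of the 3 tables, among 28995 genes listed in any of them, and all 10 had a mean of at least 10 normalized counts. The cells were fibroblasts from hindlimb muscle of wild-type C57 BL/10 mice at postnatal day 3, pooled within each of 2 mice and re-plated on 2 plates per mouse and treatment. They were kept in medium with charcoal-stripped serum from 24 hours before treatment, which removes endogenous steroids, and were treated for 48 hours with 1 µM aldosterone, with 1 µM spironolactone or with DMSO as vehicle. Aldosterone activates the mineralocorticoid receptor (MR) and spironolactone blocks it, and the spironolactone group served as a control for steroid left in the serum. Each treatment had 4 libraries. Libraries 1 and 2 carry sample number 1 in the labels and libraries 3 and 4 carry sample number 2. Which label stands for the mouse is not stated, so the p-values measure the spread between plates of 2 mice, part of which may be technical. Libraries with the same sample number were more alike than others, so the 4 libraries of a treatment are not independent of one another. Fits with sample number as a block measure the spread between plates within a sample number. Only fits that sum the libraries of a sample number take it as the unit.

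AP-1 is a dimeric transcription factor made of a FOS and a JUN protein, or of JUN proteins with one another. *Fos*, *Fosb*, *Egr1*, *Atf3* and *Ier2* belong to the genes that growth factors, serum and stress switch on within minutes and without new protein synthesis, and their mRNAs are usually short-lived. *Fosl2* and *Jund* are the family members most often found steadily expressed in fibroblasts. Activated steroid receptors can bind DNA themselves and can also act on AP-1 at its own sites. A sample taken after 48 hours does not read the first response, and without another time point it was not tested whether the levels had settled.

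Reads on genes ranged from 19136923 to 30219185 per library. Fibroblast identity was checked by 8 markers, whose summed level was 15162.2 to 17687.8 TPM (a level scaled to transcript length and to the depth of the library) with aldosterone, 20639.3 to 23253.3 with vehicle and 17714.6 to 20971.4 with spironolactone. The aldosterone libraries thus lay below all others in this sum. By limma at an adjusted p of at most 0.05 against vehicle, 1 of the 8 was higher, 1 lower and 6 not called. *Pdgfra* rose by 0.91 on the log2 scale (SE 0.06) and *Col3a1* fell by 0.43 (SE 0.07). Of all genes 5.68% were higher and 4.74% lower. With a replicate block on sample number 1 marker was higher and 7 lower, where 8.68% and 8.02% of all genes were. The 6 endothelial markers summed to 19.6 to 20.9 TPM with aldosterone, above the 15.9 to 17.8 with vehicle and the 15.0 to 17.1 with spironolactone, and the 5 macrophage markers in the tables to 18.2 to 29.1 TPM over all libraries. *Ptprc*, *Adgre1*, *Pax7*, *Myf5*, *Myog* and *Tie1*, which define other cell types, had 3 reads or fewer in every library. Other markers of these types were present. The endothelial *Kdr* had 21.73 to 75.04 normalized counts with vehicle and 93.63 to 243.4 with aldosterone, and was called higher (log2 fold change 1.885). The myogenic *Acta1* had 452 to 643.7 and 143.6 to 330.8, and was called lower (-1.26). The 4 Schwann markers summed to 23.24 to 30.24 TPM with vehicle and 28.61 to 41.3 with aldosterone, and *S100b* was called higher (0.496). Summed levels of 4 smooth muscle and pericyte markers were 109.2 to 179.9 TPM with aldosterone and 144.2 to 214.4 TPM with vehicle, and those of 8 myogenic markers were 17.0 to 36.4 and 52.3 to 71.8 TPM. Their part in the results below was not tested, and fewer cells of a type cannot be told apart from less RNA per cell. The treatment itself was visible in *Fkbp5*, a co-chaperone of steroid receptors, with a log2 fold change of 4.26 against vehicle (SE 0.08, limma adjusted p = 4.024e-15), in *Tsc22d3* with 2.69 and in the clock gene *Per1* with 1.83.

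The stretch just before the transcription start is shown for *Fos*, which rose with aldosterone, for its paralogue *Fosb*, which was not called, and for *Atf3*, which was lower with aldosterone than with spironolactone. Each is the reference sequence of 250 bases from RefSeq on GRCm38.p6, read 5′ to 3′ on the strand of the gene. Capitals mark TGACG (the core of a cAMP response element), TATAAA (the core promoter element bound by TBP) and GGGCGG (an SP1 site), each searched on both strands.
Fos, chr12:85473640-85473889, plus strand: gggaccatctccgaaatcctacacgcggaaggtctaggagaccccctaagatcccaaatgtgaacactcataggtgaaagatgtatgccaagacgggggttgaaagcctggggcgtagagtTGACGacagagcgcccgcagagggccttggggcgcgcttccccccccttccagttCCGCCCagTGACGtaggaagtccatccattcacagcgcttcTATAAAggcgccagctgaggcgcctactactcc
Fosb, chr7:19310046-19310295, minus strand: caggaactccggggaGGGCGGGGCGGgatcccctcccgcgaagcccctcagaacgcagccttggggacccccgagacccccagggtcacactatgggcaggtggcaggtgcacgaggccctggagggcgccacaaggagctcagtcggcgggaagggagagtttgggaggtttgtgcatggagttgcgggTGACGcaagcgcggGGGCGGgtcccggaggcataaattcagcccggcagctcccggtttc
Atf3, chr1:191183334-191183583, minus strand: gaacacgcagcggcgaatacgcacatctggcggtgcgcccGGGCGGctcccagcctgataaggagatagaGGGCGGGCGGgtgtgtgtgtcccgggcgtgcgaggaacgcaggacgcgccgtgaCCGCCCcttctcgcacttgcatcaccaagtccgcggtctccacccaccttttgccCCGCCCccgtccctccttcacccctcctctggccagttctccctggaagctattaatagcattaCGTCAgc

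Promoter windows were available for 7 of the 10 genes, all but *Fosl1*, *Egr1* and *Ier2*. TATAAA was found in 1 of the 7, in *Fos*, from 33 to 28 bases before the start, against 12.4% of 32851 RefSeq windows of the same length. TGACG was found in 4 of the 7 (*Fos*, *Fosb*, *Junb* and *Atf3*), against 17.8% of all windows. *Fos* held it at 2 positions, of which the nearer began 66 bases before the start. GGGCGG was present in 5 of the 7 against 32.7%, and the EGR site GCGNGGGCG, whose last letters overlap it, in *Fosb* and *Fosl2* against 4.7%. None of the 7 windows held the AP-1 site TGANTCA (6.75% of all windows), the full element TGACGTCA (1.55%, which contains TGACG), a CArG box bound by serum response factor (1.47%), the palindromic site of steroid receptors (0.00913%) or its AGAACA part alone (16.1%). A match is a description of letters, and the absence of one says only that these letters were not in this window.

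The members spanned more than an order of magnitude in level. In vehicle-treated fibroblasts *Jund* was the highest with 205 ± 14.5 TPM (SD, n = 4), which placed it above 95.7% of 16947 protein-coding genes. *Fosl2* followed with 109 ± 8.13 TPM, *Jun* with 86.6 ± 3.02 TPM and *Ier2* with 84.5 ± 14.6 TPM. *Junb* was at 61.8 ± 2.97 TPM and *Egr1*, a zinc finger factor, at 51.1 ± 15.5 TPM. The other four were far lower, with *Atf3* at 7.79 ± 1.56, *Fos* at 5.58 ± 2.03, *Fosl1* at 5.07 ± 0.898 and *Fosb* at 1.82 ± 0.251 TPM. The vehicle libraries of *Jun* and *Ier2* overlapped, as did those of *Junb* and *Egr1*, of *Atf3* and *Fos*, and of *Fos* and *Fosl1*, so the order within these pairs is not set by the data. All other neighbours in the order were separated in the 4 vehicle libraries.

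**Figure D1:**
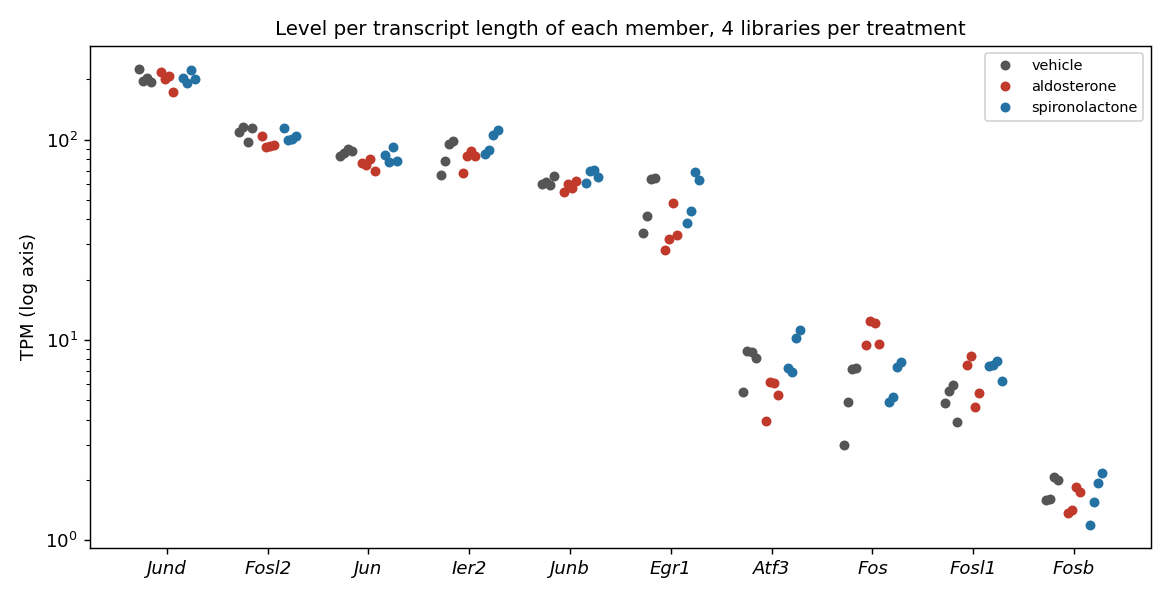
Level of each of the 10 genes in TPM on a log axis, ordered by the mean in vehicle, with 1 point per library and 4 libraries per treatment (grey vehicle, red aldosterone, blue spironolactone). *Jund*, *Fosl2*, *Jun*, *Ier2*, *Junb* and *Egr1* sit above the other four genes in every library, and the 4 aldosterone points of *Fos* lie above its other 8.

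*Fosl2* supplied most of the FOS family mRNA. Its share of the summed TPM of the 4 FOS genes was 89.7% ± 2.35 (SD, n = 4) with vehicle, 83.4% ± 2.12 with aldosterone and 87.3% ± 1.68 with spironolactone. *Fos* made up 4.61% ± 1.75 with vehicle, from 2.52% to 6.36%, and 9.54% ± 1.63 with aldosterone, from 7.67% to 10.9%. The share of *Fos* with spironolactone was 5.24% ± 1.26. The family total was 122 ± 7.06 TPM with vehicle, 115 ± 5.73 with aldosterone and 120 ± 6.02 with spironolactone, with overlapping libraries. In the JUN family *Jund* held 58.0% ± 2.32, *Jun* 24.5% ± 1.41 and *Junb* 17.5% ± 1.17 of the summed TPM with vehicle, and 59.8% ± 2.26, 22.6% ± 0.562 and 17.6% ± 1.98 with aldosterone. The JUN total was 2.92 ± 0.229 times the FOS total with vehicle, 2.90 ± 0.135 times with aldosterone and 2.95 ± 0.241 times with spironolactone. These shares are descriptions with no test.

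The comparison of aldosterone with vehicle asks what the agonist does to these fibroblasts. *Fos*, the founding member of the FOS family, rose 2.18-fold (95% interval 1.57 to 3.03). No other member of the FOS family and none of the JUN family was called. In all, 1 of the 10 genes was higher and 0 were lower by limma at an adjusted p of at most 0.05 over 27319 genes, where 5.68% of all genes were higher and 4.74% lower. At an unadjusted p under 0.05 there were 3 of the 10, *Fos* upward and *Egr1* and *Atf3* downward. The share of all genes at that unadjusted p is not given here. By edgeR and DESeq2 0 were called lower as well. The median log2 fold change of the 10 genes was -0.04, against -0.01 for all genes. *Fos* also passed the 2-fold threshold that the study used, which 1.4% of all genes did in the upward direction.

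*Fos* (ENSMUSG00000021250, chr12:85520664-85524047 on mm39, plus strand) had 146.6, 200.0, 187.2 and 148.4 normalized counts in aldosterone libraries 1 to 4, on a scale common to all 12 libraries. The vehicle libraries had 45.0, 72.1, 104.9 and 102.1, and the spironolactone libraries 71.7, 79.8, 107.4 and 112.4. Every aldosterone library was above every library of the other 2 treatments, and vehicle and spironolactone overlapped. In the table of the pair the log2 fold change was 1.13 with SE 0.22 (limma adjusted p = 0.00272, and 7.505e-06 with a replicate block on sample number). With the libraries of a sample number summed, which leaves 2 against 2, *Fos* was not called, with a log2 fold change of 1.15 and an adjusted p of 0.0572. Behind these values stood 53 to 94 reads per library with vehicle and 112 to 205 with aldosterone. The adjusted p rose above 0.05 when aldosterone library 2 (0.089), 3 (0.0909) or 4 (0.0605) or vehicle library 2 (0.0801) was left out, with log2 fold changes from 0.87 to 1.27 over all 8 libraries left out in turn.

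The difference of *Fos* was also taken within each sample number. In sample number 1, aldosterone was above vehicle by 1.57 on the log2 scale, and in sample number 2 by 0.68. The aldosterone libraries of the 2 sample numbers were alike, with means of 173 and 168 normalized counts, while the vehicle libraries had means of 58.5 and 104. Within each sample number alone, with 2 libraries per treatment, *Fos* was not called (limma adjusted p = 0.189 and 0.172). The test of the difference itself, an interaction term, gave -0.89 with SE 0.33 and an adjusted p of 0.895, in a fit where 0.0146% of all genes were called.

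**Figure D2:**
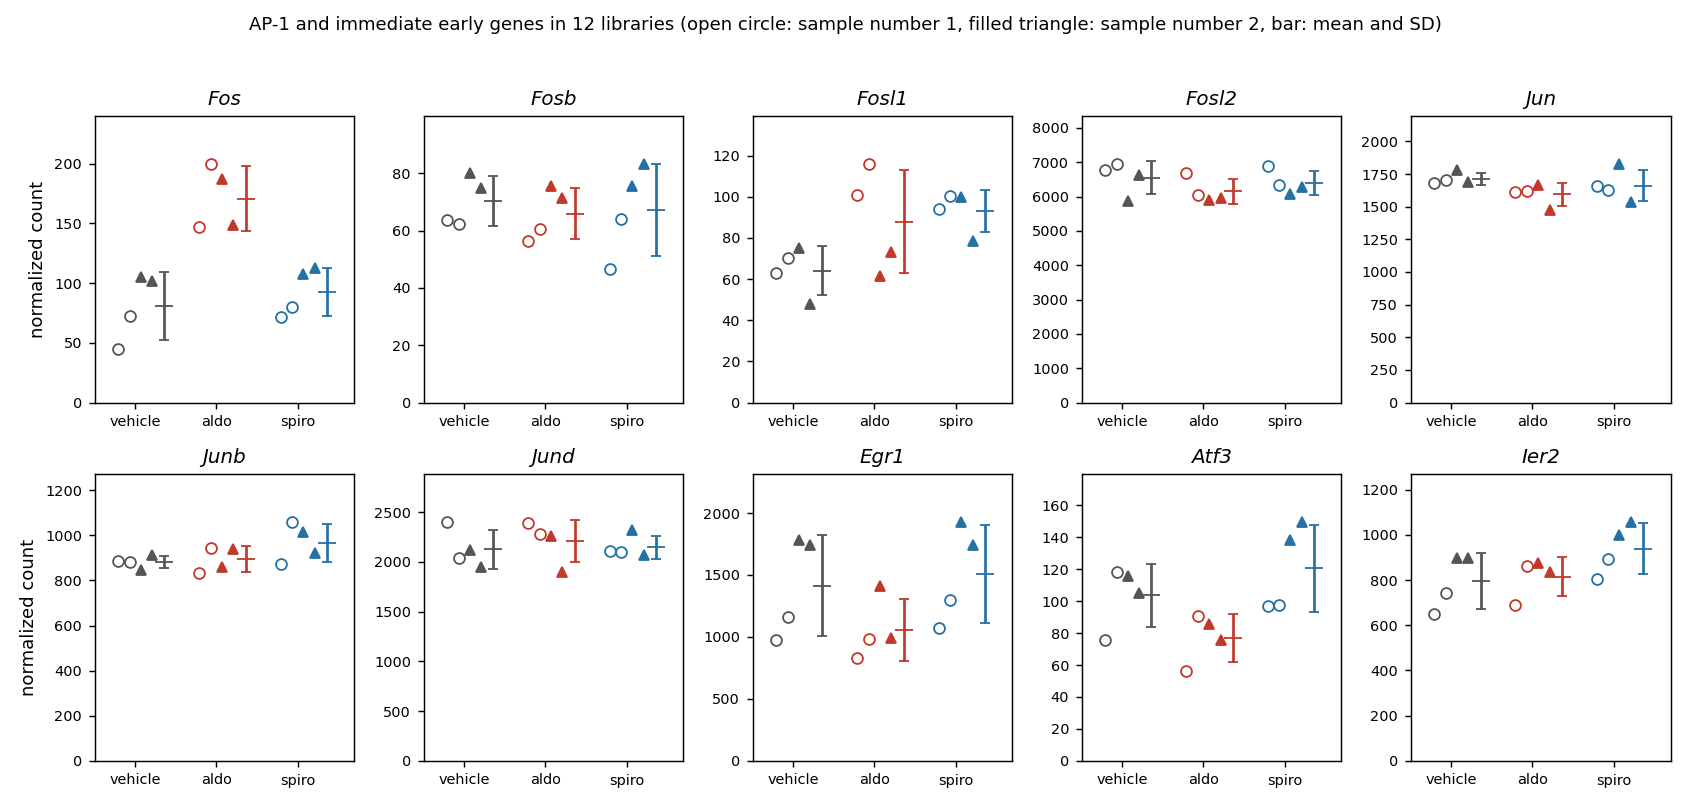
Normalized counts of each gene in the 12 libraries on a linear axis that starts at 0, with open circles for sample number 1, filled triangles for sample number 2 and bars for the mean and SD of 4 libraries. The *Fos* panel shows all aldosterone libraries at 146.6 or more and all others at 112.4 or less, and the *Egr1* panel shows triangles above circles in each treatment.

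The other 3 genes of the FOS family were not called. *Fosl2* had 6082 ± 354 normalized counts with aldosterone and 6482 ± 472 with vehicle, a log2 fold change of -0.09 (95% interval -0.22 to 0.04, limma adjusted p = 0.478). *Fosb* had -0.09 (interval -0.47 to 0.28) and *Fosl1* had 0.43 (interval -0.03 to 0.88). The aldosterone libraries of *Fosl1* were split by sample number, with 100.8 and 116.1 normalized counts in libraries 1 and 2 and 61.5 and 73.0 in libraries 3 and 4. *Fosl1* shares 2767 bases with *Ccdc85b* on the other strand, and without a stated strand setting their reads cannot be told apart.

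The JUN family gave narrow intervals. *Jund* had a log2 fold change of 0.05 (95% interval -0.11 to 0.22) and *Junb* of 0.02 (interval -0.12 to 0.16). *Jun* had 1615, 1623, 1667 and 1471 normalized counts with aldosterone and 1682, 1702, 1777 and 1691 with vehicle. Each aldosterone library was thus below each vehicle library, by a small margin, and the log2 fold change was -0.11 (interval -0.23 to 0.02, limma adjusted p = 0.329). The 2-sided exact permutation test gave p = 0.0286, which is the smallest p that 4 against 4 libraries allow. Separation of this kind is common in these data, since 6.9% of all genes had every aldosterone library below every vehicle library and 7.55% above, and 1 of the 10 genes did in each direction. *Jun* shares 689 bases with the antisense RNA *Junos*, and *Junb* shares 351 bases with *Prdx2* on the opposite strand.

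*Egr1*, the serum-induced zinc finger factor, and *Atf3*, a stress-induced bZIP factor, had the largest differences in the downward direction. *Egr1* had 831, 981, 1414 and 989 normalized counts in aldosterone libraries 1 to 4 and 977, 1158, 1782 and 1742 with vehicle. The groups overlapped, but within each sample number the aldosterone mean was lower, by 0.24 and 0.57 on the log2 scale. The log2 fold change was -0.41 (SE 0.17), with a limma adjusted p of 0.188 without the sample number and 3.712e-04 with it as a replicate block. That block alone gave the call among 13 alternatives, with adjusted p from 3.712e-04 to 0.558, and with the libraries of a sample number summed it was 0.495. With that block 8.68% of all genes were higher and 8.02% lower, and the count among the 10 genes became 1 higher and 1 lower. *Atf3* had 56.3, 90.7, 85.7 and 75.4 normalized counts with aldosterone and 75.5, 119, 116 and 105 with vehicle, and the difference on the log2 scale was -0.43 (SE 0.19, limma adjusted p = 0.204), and it was not called with the block either (0.0929). *Ier2*, a short nuclear protein induced with these factors, had 0.04 (95% interval -0.18 to 0.26).

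The comparison of aldosterone with spironolactone sets the agonist against the antagonist at the same dose and time. Spironolactone was given alone and never together with aldosterone, so whether it blocks the response to aldosterone was not tested. The paper names such combined treatment as future work. *Fos* was 1.84-fold higher with aldosterone (95% interval 1.45 to 2.34) and *Atf3* was lower, at 0.644 times the spironolactone level (interval 0.489 to 0.848). Thus 1 of the 10 genes was higher and 1 lower by limma over 27631 genes, where 4.93% of all genes were higher and 3.96% lower. With a replicate block on sample number, *Egr1* and *Ier2* joined *Atf3*, giving 1 higher and 3 lower, where 7.58% and 6.8% of all genes were called. The aldosterone libraries are the same as in the comparison with vehicle, so the 2 comparisons are not independent.

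*Fos* had a log2 difference of 0.88 (SE 0.16, limma adjusted p = 0.00148). With the libraries of a sample number summed it was 0.91 and was not called (adjusted p = 0.0602). Its call was also lost without aldosterone library 2 (0.0521) or 3 (0.0532) or spironolactone library 2 (0.0607). *Atf3* had 97.0, 97.4, 138 and 150 normalized counts in the 4 spironolactone libraries, each above all 4 aldosterone libraries given above. Its log2 difference was -0.63 (SE 0.19, limma adjusted p = 0.0428). The call of *Atf3* was lost when any 1 of the 8 libraries was left out, with adjusted p from 0.112 to 0.245, and with limma-voom or a pseudocount of 5. Full separation was seen for 1 gene in each direction, against 6.76% of all genes above and 6.22% below.

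*Egr1* had 1069, 1296, 1928 and 1739 normalized counts with spironolactone, and the groups overlapped. The log2 difference was -0.51 (SE 0.16), with a limma adjusted p of 0.0619, of 5.389e-06 with the block and of 0.338 with the libraries of a sample number summed. *Ier2* had 804, 893, 1001 and 1057 with spironolactone and 688, 862, 876 and 836 with aldosterone. Its difference of -0.20 (SE 0.09) had an adjusted p of 0.237, and of 0.0287 with the block. The other six genes were not called in either fit, with log2 differences from -0.12 for *Fosl1* to 0.04 for *Jund*.

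**Figure D3:**
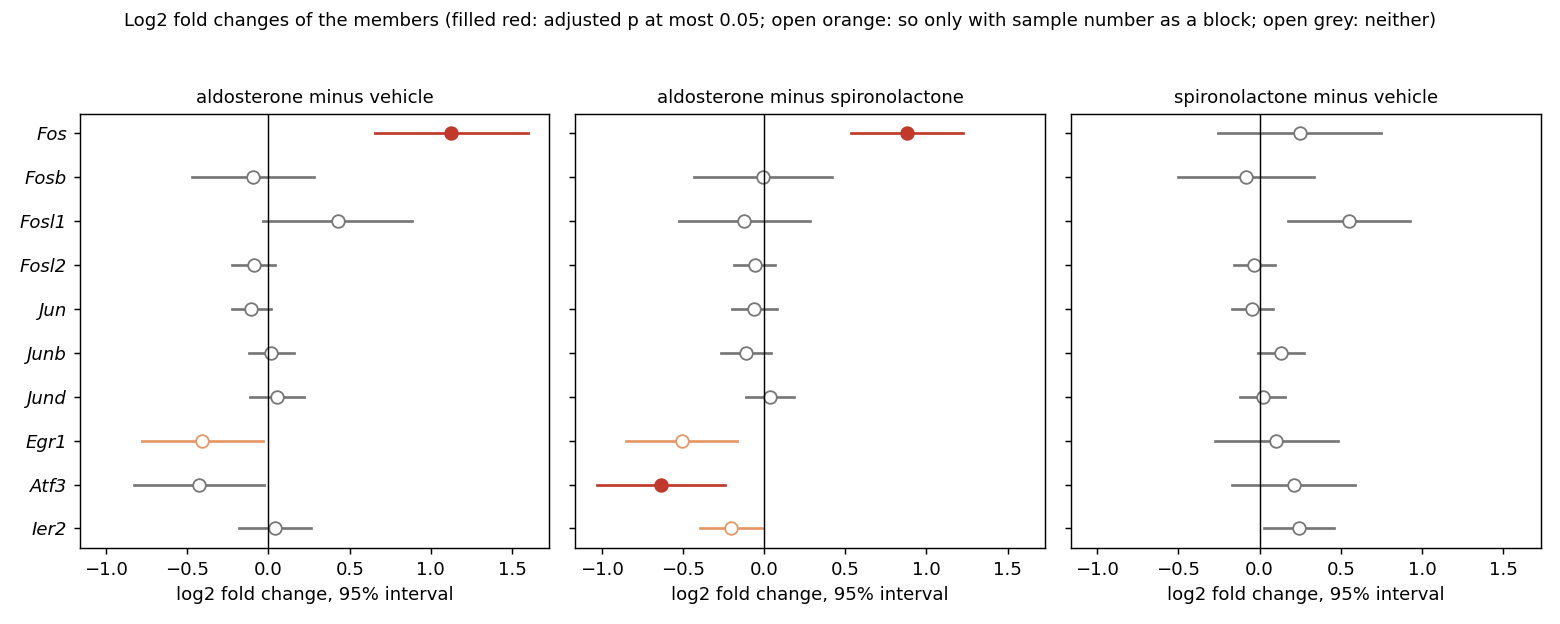
Log2 fold change of each gene with its 95% interval in the 3 comparisons, from limma on log2(normalized count + 1) with 4 libraries per treatment. *Fos* lies at 1.13 and 0.88 in the 2 comparisons with aldosterone and at 0.25 in the comparison of spironolactone with vehicle, where no gene was called.

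The comparison of spironolactone with vehicle asks whether the antagonist alone, in serum stripped of steroids, changed these genes. None of the 10 was called by limma over 27598 genes, where 0% of all genes were higher and 0% lower. At an unadjusted p under 0.05 there were 2 of the 10 genes, *Fosl1* and *Ier2*, against 4.53% of all genes, and edgeR also called none of the 10. DESeq2 called none of 8 and gave no adjusted p for the other 2, *Fosb* and *Fosl1*. *Fos* had a log2 fold change of 0.25 (95% interval -0.26 to 0.75) and *Egr1* of 0.10 (interval -0.28 to 0.48). *Fosl1* had the largest difference, with 93.9, 101, 99.9 and 78.3 normalized counts with spironolactone and 62.8, 70.1, 75.3 and 47.8 with vehicle. Its 4 spironolactone libraries were above the 4 vehicle libraries, as for 1.39% of all genes, and the log2 fold change was 0.55 (interval 0.17 to 0.93, limma adjusted p = 0.934). *Ier2* had 0.24 (interval 0.03 to 0.46, adjusted p = 0.934, and 0.053 with the block).

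Differences between the sample numbers were looked at after the values were seen. With treatment as a term and all 12 libraries, 3 of the 10 genes were higher in sample number 2 and 1 was lower, where 5.07% of all genes were higher and 5.79% lower. *Egr1* was higher in sample number 2 by 0.58 on the log2 scale (SE 0.07, limma adjusted p = 1.032e-06), with 1.65 times the normalized counts in vehicle, 1.33 times in aldosterone and 1.55 times in spironolactone. *Ier2* was higher by 0.27 (adjusted p = 0.0011) and *Fos* by 0.45 (adjusted p = 0.0376), and *Fosl2* fell by 0.11 (adjusted p = 0.0377). For *Fos* the ratio of sample number 2 to 1 was 1.77 in vehicle, 1.45 in spironolactone and 0.968 in aldosterone. The calls of *Fos* and *Fosl2* each held in 1 of the 12 fits that left out a library, and those of *Egr1* and *Ier2* in 12. The 3 JUN genes were not called, with differences from -0.08 to 0.01. All 4 smooth muscle and pericyte markers were lower in sample number 2, with *Myh11* at -1.02 and *Rgs5* at -1.01, and whether this has a part in the values of *Egr1* was not tested.

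Beyond the 10 genes, of 27 further immediate early genes 9 were higher with aldosterone than with vehicle, 7 were lower and 11 were not called by limma, where 5.68% of all genes were higher and 4.74% lower. With the block 9 were higher and 9 lower, where 8.68% and 8.02% of all genes were. The median log2 fold change of the 26 that averaged 10 normalized counts or more was -0.02, against -0.00372 for all such genes. *Sik1*, a kinase that restrains CREB signalling, rose by 1.38 (SE 0.08), from 297 to 358 normalized counts with vehicle to 814 to 925 with aldosterone. *Csrnp1*, a nuclear protein, rose by 0.89 (SE 0.17). *Ptgs2*, the inducible cyclooxygenase, fell by 1.60 (SE 0.28, limma adjusted p = 9.113e-04), from a mean of 1018 to 335 normalized counts. *Nr4a3*, an orphan nuclear receptor, fell by 1.31 (SE 0.36). The 3 EGR genes related to *Egr1* were singled out after their values were seen. *Egr3* had -0.77 (adjusted p = 0.0823, and 0.00102 with the block) and *Egr2* had -0.59 (adjusted p = 0.132) against vehicle. Against spironolactone *Egr2* was called, at -0.76 (adjusted p = 0.031), and *Egr3* was not, at -0.73 (adjusted p = 0.108, and 0.00338 with the block). *Egr4*, with a mean of 3.67 normalized counts or less in each treatment, had 0.09 against vehicle and 0.65 against spironolactone and was not called. Against spironolactone 9 of the 27 were higher and 8 lower (10 and 12 with the block), where 4.93% and 3.96% of all genes were (7.58% and 6.8% with the block). Between spironolactone and vehicle limma called none of the 27, with 3 at an unadjusted p under 0.05, 0 called by edgeR and 0 by DESeq2, and 1 was higher with the block.

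Of 23 genes known as AP-1 targets, with aldosterone 2 were higher, 7 lower and 14 not called, where 5.68% of all genes were higher and 4.74% lower. With a replicate block on sample number 4 were higher and 11 lower, where 8.68% and 8.02% of all genes were. Their median log2 fold change over the 19 with a mean of at least 10 was -0.51, against -0.00372 for all such genes. The chemokines *Cxcl1* and *Ccl2* fell by 1.06 (SE 0.20) and 0.87 (SE 0.08), and the cytokine *Lif* fell by 0.93 (SE 0.17). *Spp1*, which encodes osteopontin, rose by 1.02 (SE 0.09). *Ccl2* had 648 to 755 normalized counts with vehicle, 359 to 422 with aldosterone and 655 to 837 with spironolactone. Against spironolactone 2 of the 22 tested were higher and 8 lower, where 4.93% and 3.96% of all genes were, and 3 and 9 with the block. Many of these genes also answer to other factors.

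**Figure D4:**
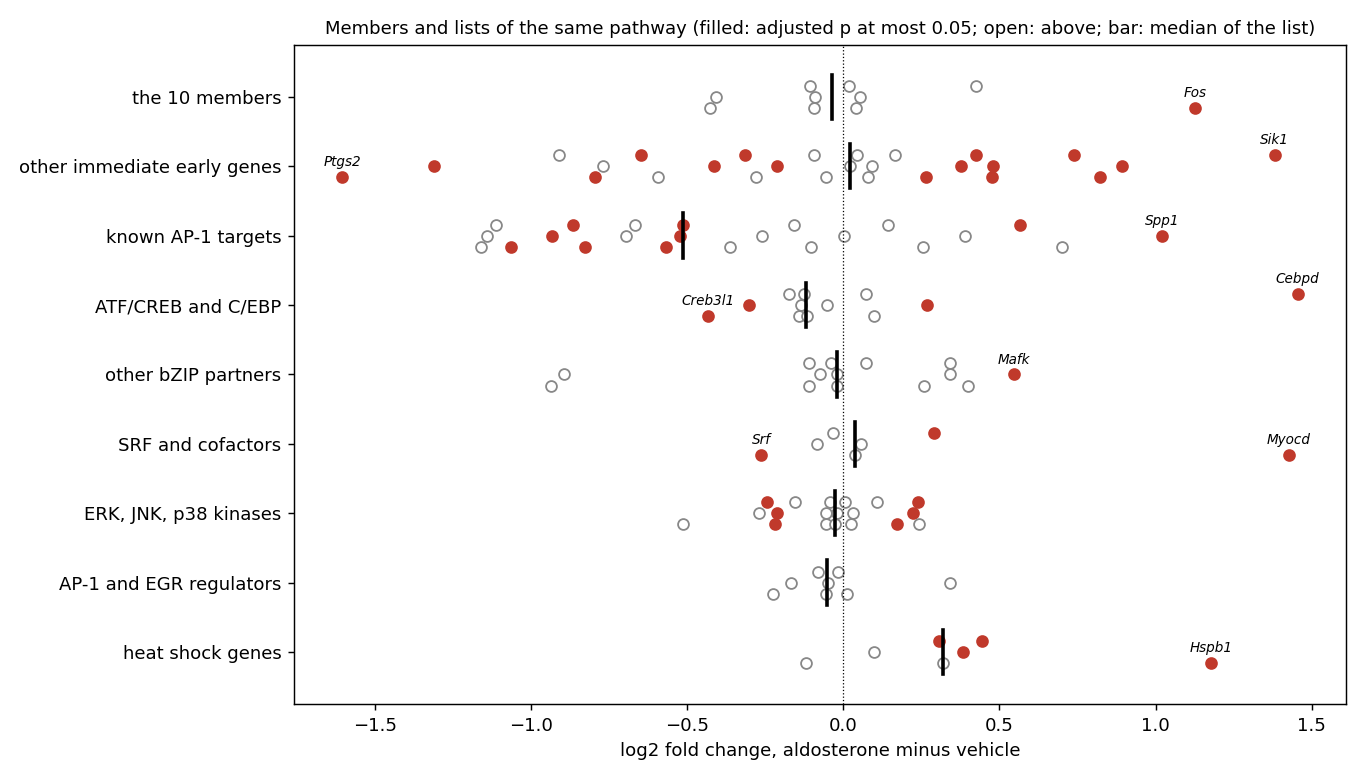
Log2 fold change of aldosterone against vehicle for the 10 genes and for 8 further lists, heat shock genes among them. There is 1 point per gene, filled red where limma called it. A bar marks the median of all tested genes of each list, those with few counts included. *Fos* stands alone on the right of its row at 1.13, while the further immediate early genes spread from -1.60 for *Ptgs2* to 1.38 for *Sik1* and the known AP-1 targets centre at -0.51.

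The counts of the following lists stand beside 5.68% of all genes higher and 4.74% lower with aldosterone against vehicle, or 8.68% and 8.02% with the block. Of 14 other bZIP partners of AP-1, *Mafk*, a small MAF protein, was higher by 0.55 (SE 0.07), 13 were not called and none was lower, and with the block 4 were higher and 1 lower. Among 12 ATF/CREB and C/EBP factors 2 were higher and 2 lower, and 2 and 4 with the block. *Cebpd*, a C/EBP factor known to answer to glucocorticoids, rose by 1.46 (SE 0.10) and *Cebpb* by 0.27 (SE 0.07), while *Creb3l1*, a membrane-bound factor of the secretory pathway, fell by 0.43 (SE 0.06) and *Ddit3*, which encodes the stress factor CHOP, fell by 0.30 (SE 0.08). Upstream of the members, of 19 ERK, JNK and p38 pathway kinases 3 were higher and 3 lower (3 and 4 with the block), among them *Mapk14* (p38 alpha) at 0.24, *Braf* at -0.25 and *Map2k3* at -0.22. Among serum response factor and 6 cofactors, *Srf* itself fell by 0.26 (SE 0.07), *Mrtfa* rose by 0.29 (SE 0.07) and *Myocd*, the cofactor of smooth muscle genes, rose by 1.43 (SE 0.26) from 42.4 to 102 normalized counts with vehicle to 139 to 242 with aldosterone. None of 8 regulators of AP-1 and EGR proteins was called by limma, with 1 at an unadjusted p under 0.05, 0 called by edgeR, 0 by DESeq2 and 1 with the block. Of 7 heat shock genes 4 were higher and none lower, led by *Hspb1* at 1.18 (SE 0.14) and *Hspa8* at 0.44 (SE 0.08). Whether that has a part in the *Fos* values was not tested.

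The genes whose pattern over the 12 libraries was most like that of *Fos* were found by the root mean square difference of log2 profiles, each set to 0 at its own vehicle mean, among 15275 other genes averaging 10 normalized counts or more. The 5 nearest were *Pim3* (difference 0.252), a serine/threonine kinase, *Il34* (0.257), a ligand of the CSF1 receptor, *Trim30d* (0.27), *Ror1* (0.282), a receptor tyrosine kinase, and *Adm* (0.29), which encodes adrenomedullin, against a median of 0.773 over all genes. *Pim3* had means of 623 normalized counts with vehicle, 1355 with aldosterone and 707 with spironolactone. For *Atf3*, which had the lowest log2 fold change with aldosterone of the 10 genes, the nearest were *Trib3* (0.17), the lncRNA *3010001F23Rik* (0.188), *Chac1* (0.198), *Ddit3* (0.201) and *Slc7a11* (0.204), against a median of 0.429. *Trib3*, a pseudokinase, had means of 2449 with vehicle, 1966 with aldosterone and 2893 with spironolactone, and *Atf3* had 104, 77.0 and 121. A like order follows largely from the choice by pattern.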

How the data were processed

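Poly(A) RNA of 12 plates was sequenced. Per the labels the authors aligned reads with HISAT2 2.0.5 and counted genes with featureCounts 1.5.0-p3 on mm39, while the methods name mm9. Whether strand was used in counting is not given in the sources used here. The authors deposited 3 tables, 1 for each treatment pair, whose signal values are counts of reads on genes scaled by the size factor of the library. The authors' own log2 fold changes and p-values in these tables were not used.

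Reads were recovered by dividing each column by its smallest step, with 100% of values whole within 0.01 of a read. Where a step was too near 1, reads came from the other table holding that library. The values by library are recovered reads divided by median-of-ratios size factors over the 12 libraries, and TPM were computed from reads and the gene lengths in the tables. The tables were normalized separately, so folds and tests were taken within each pair's own table, with limma 3.58.1 in R 4.3.3 on log2(value + 1), a prior trend and Benjamini-Hochberg adjustment over every gene. This scale understates the change of genes with few counts. Genes were called at 0.05 or below after adjustment, whatever the fold. Single values were also compared by 2-sided exact permutation tests. Tests were also run on simulated data whose libraries were independent, without the pairs by sample number described below. That check therefore does not cover how the tests behave with such pairs.

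Sample numbers paired the libraries. Deviations from the group means, correlated between treatments for equal sample numbers, had a mean Pearson's r of 0.219 across genes (24 pairs, lowest 0.134), against -0.00547 for the biological replicate number. Fits with a replicate block on sample number are given beside each member's call and list count that they change. Alternatives were edgeR 4.0.16, DESeq2 1.42.0 and limma-voom on recovered reads, TMM scaling, pseudocounts of 0.5 and 5, a mean of at least 10, both blocks, all libraries in one fit, summed or single sample numbers and leaving out each library. In a chi-square comparison of reads every library differed from the other libraries of its group by more than sampling noise. The chi-square per gene was 3.73 to 8.27 within a sample number and 13.3 to 22.9 between sample numbers. The libraries of a treatment thus lay in closer pairs by sample number. The comparison of sample numbers and its alternatives were chosen after seeing the data.

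The members and lists were chosen with earlier results of these data known. Named from each list were up to 4 called genes with the largest absolute log2 fold change of aldosterone against vehicle, with *Fkbp5*, *Tsc22d3* and *Per1* as controls and the 5 nearest genes to *Fos* and to *Atf3*.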

Additional observations from a re-analysis of the deposited data

Results flagged for a closer look

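Of 30 sets of 4 libraries (10 genes in 3 treatments), 1 held a library far from the rest. *Jund* in spironolactone library 3 had 2320 normalized counts, while the other 3 libraries lay between 2066 and 2105. The gap was 0.845 of the range, above the 95% critical value of Dixon for 4 libraries, which chance passes in about 1 of 20 sets.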

How the results depend on the processing

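Without alternatives 2847 and 2454 genes were called between aldosterone and vehicle or spironolactone, 3148 between sample numbers and 4 by the interaction. *Fos*, *Fosb*, *Fosl1* and *Atf3* rest on fewer reads per library than the other members, and whether depth limits their results was not tested. Values below follow the order aldosterone versus vehicle, then aldosterone versus spironolactone. With a replicate block on sample number, genes called became 4563 and 3974, members lower 1 and 3, and between spironolactone and vehicle 97 genes were called (13 by DESeq2, 0 without the block). Besides *Egr1* in both comparisons and *Ier2* against spironolactone, this block changed no call of a member. With libraries of a sample number summed, genes called were 916 and 800 and members higher 0 and 0. With sample number 1 alone, genes called were 17 and 4, and with sample number 2 alone 888 and 943, with members higher 0 in each. These fits hold fewer samples. Members lower against spironolactone became 0 in the same 3 fits and with limma-voom, a pseudocount of 5 and the block on the biological replicate number, and the cause was not tested. Leaving out each library gave 1766 to 2246 and 1565 to 1865 genes called, members higher 0 to 1 in both, and members lower against spironolactone 0 to 0.

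Signs of log2 fold changes turned in the following cases. Against vehicle *Ier2* was -0.0687 in sample number 2 alone, and leaving out libraries gave *Ier2* -0.0544 to 0.12 and *Junb* -0.0087 to 0.052. Against spironolactone *Fosb* was 0.0148 with limma-voom and 0.10 in sample number 1 alone, *Fosl1* 0.15 in sample number 1 alone and *Jund* -0.077 in sample number 2 alone, and leaving out libraries gave *Fosb* -0.17 to 0.11, *Fosl1* -0.27 to 0.0332 and *Jund* -0.0039 to 0.11. Between spironolactone and vehicle *Fosb* was 0.033 in sample number 2 alone and *Jund* -0.0706 in sample number 1 alone, and leaving out libraries gave *Fos* -0.0078 to 0.40, *Fosb* -0.20 to 0.0802, *Jund* -0.0208 to 0.0791 and *Egr1* -0.0601 to 0.26. For the sample numbers, whose alternatives were chosen after seeing the data, fits on 1 treatment alone called 0 genes in aldosterone, 158 in spironolactone and 0 in vehicle, with members higher 0 and lower 0, and *Fos* was -0.0387 in aldosterone alone. Leaving out libraries gave members lower 0 to 1. The interaction called 2 genes with a pseudocount of 0.5 and 11 with a mean of at least 10.

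The other alternatives kept each count within 1.5 times.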
